A study of Mus musculus with 6 samples.

Results

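Inguinal white fat holds macrophages beside its adipocytes, and 36 macrophage and monocyte genes were followed here in fat with and without Celf1 in its adipocytes. They were picked by symbol, as known genes of macrophages and monocytes, from the 16627 genes of the deposited table. All 36 were in the table and all 36 passed the filter on low counts, which left 16366 genes. For description they were split by role into 10 core genes, 2 signalling adaptors, 3 complement chains, 3 Fc receptors, 3 receptors for microbial products and modified lipoproteins, 9 genes of resident macrophages and 6 genes of lipid-associated macrophages. The 2 groups were 3 libraries in which Celf1 was knocked out in adipocytes alone, per the labels (Celf1 AKO, here the knockout libraries), and 3 from fl/fl littermates (Flox control, here the controls). Mice of both groups were kept in the cold, at 4 °C for 6 hours, so neither group shows fat at warmth. For the Cre driver, strain, age and sex the sources used here give nothing. Macrophages were not the cell type that the knockout label names. The labels do not state that each library came from its own animal, so p-values measure the spread between libraries, which may be technical.

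Macrophages are phagocytes that take up dead cells, lipid and debris, and they depend on the growth factor receptor Csf1r. In fat, resident macrophages lie along vessels and in the stroma and carry scavenger and lectin receptors such as Cd163, Mrc1, Folr2 and Timd4. Lipid-associated macrophages surround dying adipocytes in obesity, and are known by the lipid sensor Trem2, by Cd9, Gpnmb and Spp1 and by a programme of lysosomes and lipid handling. Several of these genes are also used by other cells: Cd9 and Lgals3 are made by many cell types, and Tlr4 and Cd14 are not limited to macrophages.

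Library totals ran from 54835348 to 64979443 counts. Celf1 itself was at 52.5, 49.8 and 63.0 against 126, 114 and 144 CPM, knockout against controls, with no overlap. CPM are normalised counts, scaled to library size and composition, and values per library stand in the order of replicates 1, 2 and 3 here and below. The log2 fold change of Celf1 was -1.21 (SE 0.14, edgeR quasi-likelihood adjusted p = 0.122; DESeq2 2.09e-09), and it passed edgeR without Celf1 AKO replicate 3 (0.0174) and with a replicate block (0.0476). These fits called 3.19% and 0.0733% of all genes. The labelled fat held its defining markers: 10 genes of mature adipocytes summed to between 37597 and 49120.2 CPM, while the 36 macrophage genes summed to between 1535 and 3815 CPM. Celf1 AKO replicate 3 stood apart in neutrophil markers, and the values of these and of other cell types are given beside the results they touch.

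The 250 bases before the RefSeq start are shown for 5 of them, to set promoters of genes with different patterns side by side (RefSeq on GRCm38.p6, each on the gene's own strand). They are C1qb, Cd68 and Mrc1, each lowest in Celf1 AKO replicate 2, and Mertk and Spp1, which did not share that pattern. Capitals mark GAGGAA or its reverse complement, the core that PU.1 (Spi1), the transcription factor of the myeloid lineage, binds. The windows are chr4:136886201-136886450 (minus strand), chr11:69666171-69666420 (minus), chr2:14229164-14229413 (plus), chr2:128698665-128698914 (plus) and chr5:104434861-104435110 (plus).
C1qb: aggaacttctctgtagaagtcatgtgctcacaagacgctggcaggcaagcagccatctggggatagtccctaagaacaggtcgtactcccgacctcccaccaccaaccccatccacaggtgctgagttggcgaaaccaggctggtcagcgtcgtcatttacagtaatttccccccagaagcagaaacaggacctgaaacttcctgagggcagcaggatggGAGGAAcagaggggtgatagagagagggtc
Cd68: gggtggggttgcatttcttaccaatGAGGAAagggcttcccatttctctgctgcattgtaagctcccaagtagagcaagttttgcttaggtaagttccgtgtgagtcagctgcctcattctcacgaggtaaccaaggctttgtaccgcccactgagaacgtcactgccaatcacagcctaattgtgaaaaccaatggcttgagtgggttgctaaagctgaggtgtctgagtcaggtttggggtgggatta
Mrc1: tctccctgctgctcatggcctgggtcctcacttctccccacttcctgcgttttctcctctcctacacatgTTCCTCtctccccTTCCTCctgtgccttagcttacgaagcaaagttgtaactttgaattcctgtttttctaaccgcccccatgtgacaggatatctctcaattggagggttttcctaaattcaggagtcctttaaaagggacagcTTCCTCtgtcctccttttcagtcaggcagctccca
Mertk: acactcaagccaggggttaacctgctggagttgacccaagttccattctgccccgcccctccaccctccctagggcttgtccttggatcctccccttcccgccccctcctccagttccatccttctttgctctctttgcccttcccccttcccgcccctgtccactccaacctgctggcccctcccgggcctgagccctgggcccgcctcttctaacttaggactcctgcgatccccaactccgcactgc
Spp1: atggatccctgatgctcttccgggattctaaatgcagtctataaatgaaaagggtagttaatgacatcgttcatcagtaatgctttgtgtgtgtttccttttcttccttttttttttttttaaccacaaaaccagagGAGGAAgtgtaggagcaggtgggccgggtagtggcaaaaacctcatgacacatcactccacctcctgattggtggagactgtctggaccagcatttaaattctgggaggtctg

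The core occurred 3 times in the Mrc1 window, 1 time each in those of C1qb, Cd68 and Spp1, and 0 times in that of Mertk. Among other members lowest in Celf1 AKO replicate 2, Lyz2, Cd163, Folr2, Timd4, Fcer1g, Fcgr2b, Itgax, Ms4a7 and Gpnmb did not hold the core. C1qc, Cbr2, Ctss, Fcgr1, Fcgr3, Itgam, Laptm5, Retnla, Trem2 and Vsig4, also lowest there, did. A link of the core to this pattern was not tested. Of the 28 members with a promoter in the RefSeq table, taken with 1 window each, 15 held the core on either strand (53.6%). Over all 32851 promoter windows of this length, not limited to 1 per gene, the share was 23.3%. The core was in 4 of 8 resident and 2 of 6 lipid-associated genes. The E-box CACGTG, read alike on both strands and bound by the lysosomal regulators of the MiT/TFE family, was in 0 of the 28 and in 6.02% of all windows (these motifs can share at most 1 base). A match describes letters, not a bound site.

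The first question was whether macrophage genes as a group differed between the genotypes. Of the 36 genes, 0 rose and 0 fell in Celf1 AKO at an adjusted p under 0.05 (edgeR), beside 2 of 16366 genes tested, or 0.0122%, both higher. Their log2 fold changes had a median of -0.05, beside -0.02 over all genes tested, and ran from -0.30 for Lyz2 to 1.21 for Spp1, with 12 positive and 24 negative. At an unadjusted p under 0.05, 3 members were higher (Mertk, Spp1 and Cd14) and 0 lower, where 6.75% and 6.17% of all genes were (12.9% together). DESeq2 called 2 members higher, Mertk and Spp1, and 0 lower, beside 3.08% of the genes with an adjusted p (2.12% higher and 0.96% lower), and limma-voom called 0. The members' count was also 0 with no filter on low counts (0.012% of all genes called), with a replicate block (0.0733%) and without Celf1 AKO replicate 2 (0.0121%) or 3 (3.19%). The groups did not overlap for 2 members that were higher (Mertk and Spp1) and 1 that was lower (Tlr4), against 7.81% and 9.51% of all genes (17.3% together).

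**Figure D1:**
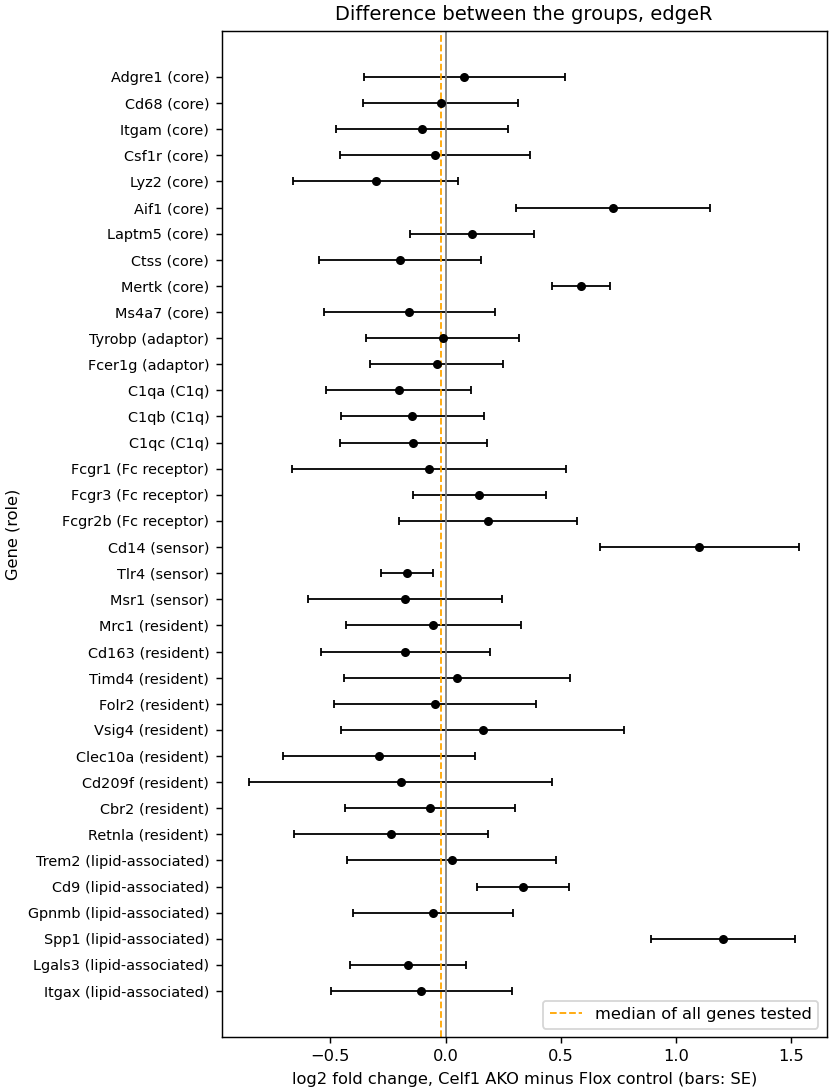
Log2 fold change of each of the 36 genes (x axis, Celf1 AKO minus Flox control; bars are the SE, n = 3 libraries per group), ordered by role on the y axis. Most genes sit within 1 SE of 0, and Spp1 (1.21), Cd14 (1.10), Aif1 (0.73) and Mertk (0.59) lie furthest to the right; the dashed line is the median of all genes tested (-0.02).

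The sign of that median rested on single libraries. Without Celf1 AKO replicate 1 the median over the 36 genes was -0.43, with 6 positive. Without Celf1 AKO replicate 2 it was 0.27, with 33 positive. Without Flox control replicate 3 it was 0.065, with 22 positive. The median over all genes tested was 0.0024, -0.02 and -0.01 in the same fits. No member passed in any of these fits, so neither direction is a call.

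The spread among the knockout libraries was the most general feature of these genes. Celf1 AKO replicate 2 was the lowest of 6 libraries for 29 of the 36, against 23.4% of all genes tested, and replicate 1 the highest for 25, against 18.6%. Replicate 1 held at least 2-fold more CPM than replicate 2 for 29 of the 36, against 7.61% of all genes, and the 7 exceptions were Mertk, Cd14, Tlr4, Cd9, Gpnmb, Spp1 and Lgals3. The median of that fold was 2.73 over the members and 0.999 over all genes. The SD of log2(CPM + 0.5) was larger in Celf1 AKO than in Flox control for 33 of the 36 (median 0.74 against 0.27), beside 62.6% of all genes. Members in 1 library share its cells, so these counts describe 6 libraries and not 36 separate observations. In bulk tissue, fewer cells of a type and less RNA per cell cannot be told apart.

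**Figure D2:**
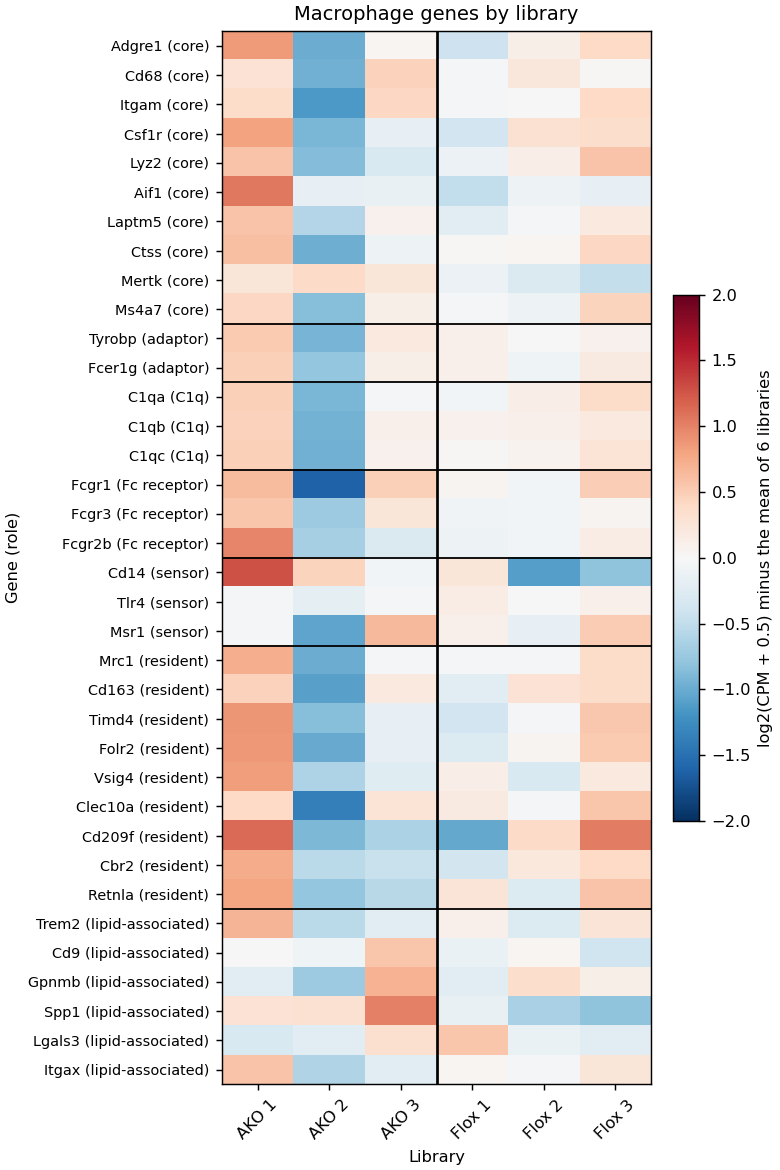
Log2(CPM + 0.5) of each gene (rows, by role) in each library (columns), as the difference from that gene's mean over 6 libraries (red above, blue below). The column of Celf1 AKO replicate 2 is blue and that of replicate 1 red for most rows, and Mertk, Cd14, Cd9, Spp1 and Lgals3 are among those that differ from this.

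Markers of several other blood cells, but not of all, had the same low library. The 8 pan-leukocyte markers summed to 222, 85.0 and 203 CPM in the knockout libraries and 150.4, 162 and 229 CPM in the controls, and Celf1 AKO replicate 2 was the lowest library for 8 of 8. Ptprc, the common leukocyte antigen CD45, was at 30.4, 10.9 and 22.4 against 18.8, 18.3 and 34.0 CPM. Mast cell markers were lowest in that library for 7 of 8 and B and T cell markers for 5 of 6. This held for 4 of 8 dendritic cell, 3 of 8 monocyte, 0 of 8 neutrophil and 0 of 6 erythrocyte markers. Fibroblast and preadipocyte markers differed less, with a median fold of replicate 1 over replicate 2 of 1.60, and mature adipocyte markers were on the other side, at 0.848. Neutrophil markers had another order. Their sum was 107, 86.5 and 174 CPM in the knockout libraries and 70.7, 63.1 and 70.0 CPM in the controls. Abundant markers weigh most in a sum. The mean log2 level of the 8 markers was 1.94, 2.42 and 3.94 in the knockout libraries and 1.31, 1.88 and 0.653 in the controls. Celf1 AKO replicate 2 thus lay above replicate 1 by the mean log2 level and below it by the sum. The median fold of replicate 1 over replicate 2 was 0.566. Both measures were highest in Celf1 AKO replicate 3. The part of neutrophils in the macrophage values was not tested.

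**Figure D3:**
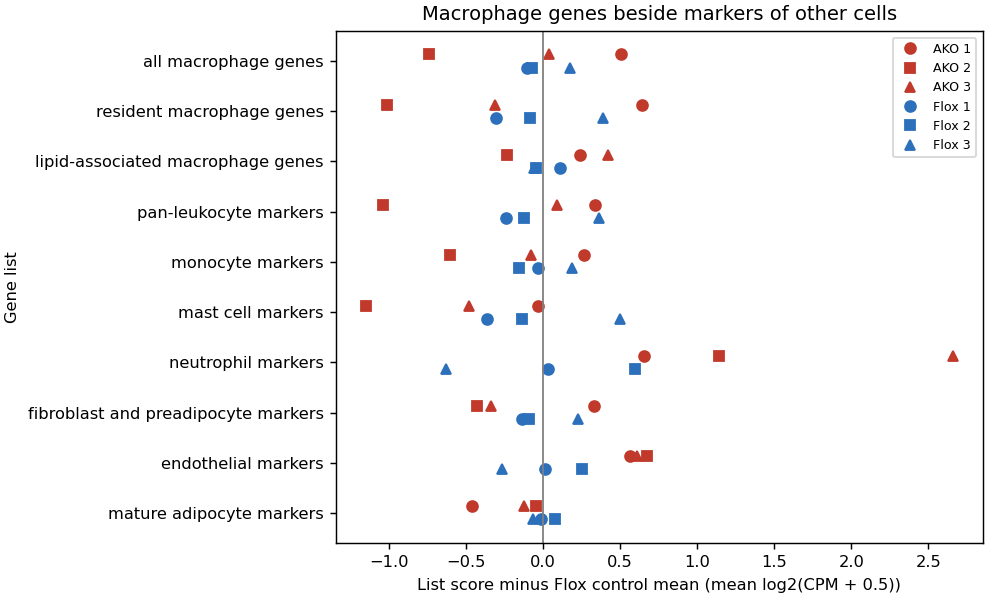
Score of each gene list (rows; mean log2(CPM + 0.5) of its tested genes) in each library, as the difference from the Flox control mean (x axis). Celf1 AKO replicate 2 (red squares) is furthest to the left for the list of all macrophage genes (-0.74) and the resident (-1.02), leukocyte (-1.04), monocyte (-0.61) and mast cell (-1.15) lists, less so for the fibroblast (-0.43) and lipid-associated (-0.24) lists, and to the right for the neutrophil (1.14) and endothelial (0.68) lists.

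Among the 10 core genes, Celf1 AKO replicate 2 was the lowest library for 8 and replicate 1 the highest for 6. Adgre1, which encodes the surface marker F4/80 (ENSMUSG00000004730; chromosome 17, 57358691 to 57483527, + strand), was read at 45.8, 12.3 and 25.8 CPM in the knockout libraries, against 18.7, 27.3 and 33.3 CPM in the controls. The highest and the lowest of the 6 values were both from knockout libraries, and the controls lay between them. Its log2 fold change was 0.08 (SE 0.44, edgeR adjusted p = 0.954). Csf1r, the receptor on which macrophages depend to survive (ENSMUSG00000024621; chromosome 18, 61100598 to 61132149, + strand), was at 190.4, 57.2 and 97.1 CPM in the knockout libraries, against 83.0, 134 and 138 CPM in the controls. Again Celf1 AKO replicates 1 and 2 held the extremes, and the log2 fold change was -0.05 (SE 0.41, adjusted p = 0.974). Cd68, a lysosomal glycoprotein of phagocytes, was at 28.4, 11.6 and 32.0 against 22.4, 27.1 and 23.5 CPM in the same order. Here Celf1 AKO replicate 3 was the highest and replicate 2 the lowest.

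Of the other core genes, Lyz2 encodes lysozyme, Itgam the integrin CD11b (also on neutrophils), Ctss the protease cathepsin S, Laptm5 a lysosomal membrane protein of blood cells and Aif1 the actin-binding protein Iba1. Lyz2 was at 461, 169 and 251 against 286, 340.0 and 461 CPM. Itgam was at 87.0, 30.2 and 90.6 against 66.7, 67.5 and 88.9 CPM. In both, Celf1 AKO replicate 2 was the lowest library and the other values overlapped. Neutrophils express both genes too, and neutrophil markers summed to 174 CPM in Celf1 AKO replicate 3, their highest library and that of Itgam; their part in these values was not tested. Ctss ran from 31.5 to 95.0 CPM, Laptm5 from 48.0 to 107 CPM and Ms4a7 from 2.42 to 6.72 CPM over the 6 libraries, each lowest in that same library. Log2 fold changes were -0.30 for Lyz2, -0.10 for Itgam, -0.20 for Ctss, 0.11 for Laptm5 and -0.16 for Ms4a7 with edgeR adjusted p-values from 0.747 to 0.934. Aif1 was low, at 5.55, 2.11 and 2.14 against 1.58, 2.23 and 2.10 CPM, and its log2 fold change of 0.73 (SE 0.42, adjusted p = 0.498) was 0.15 without Celf1 AKO replicate 1.

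Mertk, a receptor tyrosine kinase that binds dead cells through bridging ligands (ENSMUSG00000014361; chromosome 2, 128698956 to 128802894, + strand), stood apart from the other core genes. It was read at 45.4, 50.2 and 45.6 CPM in the knockout libraries, against 35.4, 31.3 and 27.3 CPM in the controls. All 3 knockout libraries lay above all 3 controls, and Celf1 AKO replicate 2, the lowest library for most members, was its highest. The means were 47.1 ± 2.74 against 31.3 ± 4.00 CPM (SD, n = 3 each). This was a log2 difference of 0.59 (SE 0.13), which did not pass (edgeR adjusted p = 0.227). DESeq2 gave an adjusted p of 0.00959, and the edgeR values with 1 library left out ran from 0.0609, with Celf1 AKO replicate 3 dropped, to 0.782, with Flox control replicate 3 dropped. Markers of endothelial cells went the same way, with positive log2 fold changes for 7 of 8. Of these, 6 were at an unadjusted p under 0.05 (edgeR), where 6.75% of all genes were higher. None, 0 of them, passed the adjusted test. Their summed level was 1057 to 1239.6 CPM in the knockout libraries and 611 to 883 CPM in the controls. Their part in the Mertk value was not tested.

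**Figure D4:**
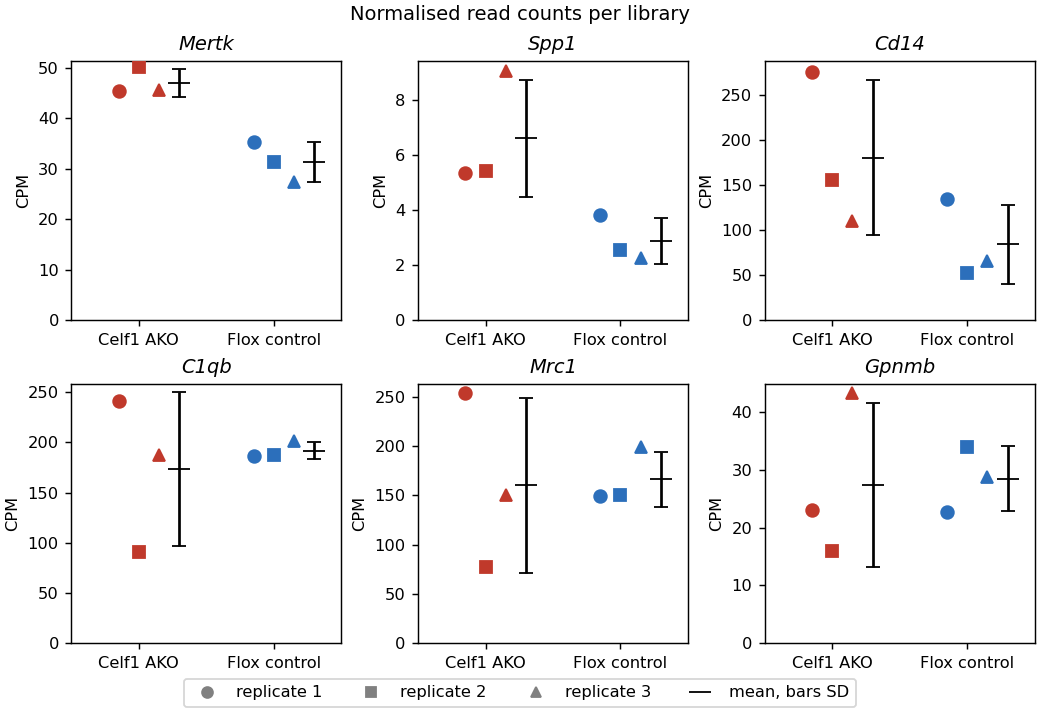
CPM (y axis, from 0) of 6 genes in each library, with replicates 1, 2 and 3 as circles, squares and triangles, and the mean and SD of each group in black. Mertk and Spp1 do not overlap between the groups, Cd14 overlaps through Flox control replicate 1, and C1qb, Mrc1 and Gpnmb are spread more widely among the knockout libraries than among the controls.

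The adaptors, the complement chains and the Fc receptors are taken next. Activating Fc receptors and Trem2 signal through Fcer1g or Tyrobp, and C1q binds antibody and dying cells. Tyrobp was at 28.1, 9.87 and 22.2 CPM in the knockout libraries, against 20.8, 19.5 and 20.5 CPM in the controls. The controls were within 1.07-fold of each other, while the knockout libraries spanned 2.84-fold, and the means were 20.1 ± 9.30 against 20.2 ± 0.668 CPM (SD, n = 3 each). Fcer1g, which also serves the IgE receptor of mast cells, was at 37.4, 15.4 and 29.0 against 28.7, 25.1 and 30.2 CPM. Its log2 fold change was -0.04 (SE 0.29), and that of Tyrobp -0.01 (SE 0.33), the latter 0.0041 with RLE scaling.

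C1qa, C1qb and C1qc encode the 3 chains of C1q and lie side by side on chromosome 4, from 136880129 to 136898803 on GRCm38, all on the minus strand. C1qb was read at 242, 90.7 and 188 CPM in the knockout libraries, against 186, 188 and 201 CPM in the controls. The controls spanned 1.08-fold and the knockout libraries 2.67-fold, with controls between the knockout extremes. C1qa was at 204, 77.6 and 144 against 141, 160.5 and 189 CPM. C1qc was at 165, 60.4 and 125 against 119.8, 124 and 142 CPM. Both had the library order of C1qb within the knockout group. Per length, in FPKM (fragments scaled to transcript length and library size), the chains kept similar proportions: C1qc was 0.582 to 0.639 of C1qb, and C1qa 0.790 to 0.982 of it, in every library. Log2 fold changes were -0.20, -0.14 and -0.14 (SE 0.32, 0.31 and 0.32), with edgeR adjusted p-values of 0.818 to 0.886.

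Fcgr1 encodes the high-affinity IgG receptor, Fcgr3 an activating one and Fcgr2b the inhibitory one. Fcgr1 was at 6.61, 0.999 and 5.90 CPM in the knockout libraries, against 4.27, 3.94 and 5.98 CPM in the controls. This was the widest gap within the knockout group, 6.62-fold, and its lowest library still held 61 counts. Fcgr3 was at 79.7, 32.3 and 64.0 against 51.3, 51.7 and 55.9 CPM. Fcgr2b was at 124, 39.4 and 51.6 against 59.0, 60.6 and 69.7 CPM. Stretches of the transcripts of these 2 are alike, so reads can be split between them. Their log2 fold changes were -0.07, 0.15 and 0.18, with edgeR adjusted p-values of 0.864 to 0.970. Fcgr2b was near 0 with a replicate block (-0.0051).

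Among the receptors that sense microbial products, Cd14 carries lipopolysaccharide to Tlr4. Cd14 (ENSMUSG00000051439; chromosome 18, 36725067 to 36726798, − strand) was read at 276, 155 and 109 CPM in the knockout libraries, against 134, 52.6 and 65.1 CPM in the controls. Flox control replicate 1 lay above Celf1 AKO replicate 3, so the groups overlapped. The log2 fold change was 1.10 (SE 0.43, edgeR adjusted p = 0.353), and leaving out 1 library gave 0.70 (Celf1 AKO replicate 1 dropped) to 1.61 (Flox control replicate 1 dropped). Its order of libraries was not that of Adgre1 or Csf1r, since Celf1 AKO replicate 2 was its second highest library. Tlr4 had the narrowest range of the 36, at 23.1, 20.5 and 22.6 against 25.9, 23.5 and 25.0 CPM. Its knockout values lay below its controls without overlap, by a log2 fold change of -0.17 (SE 0.11, adjusted p = 0.565). Msr1, a scavenger receptor for modified lipoproteins, was at 9.26, 4.34 and 15.3 against 10.3, 8.52 and 13.9 CPM, highest in Celf1 AKO replicate 3 and lowest in replicate 2.

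Resident macrophage genes followed 1 order within the knockout group: in all 9, Celf1 AKO replicate 1 was above replicate 3 and replicate 3 above replicate 2. This order was not particular to resident genes. Adgre1, Csf1r, Lyz2, both adaptors, the C1q chains, the Fc receptors, Trem2 and Itgax were among the other members that had it. Mrc1, the mannose receptor CD206 (ENSMUSG00000026712; chromosome 2, 14229392 to 14332057, + strand), was read at 254, 77.3 and 150.1 CPM in the knockout libraries, against 149.6, 151 and 199 CPM in the controls. Cd163, the receptor for haemoglobin bound to haptoglobin (ENSMUSG00000008845; chromosome 6, 124304656 to 124330527, + strand), was read at 262, 89.3 and 217 CPM in the knockout libraries, against 163, 234 and 245 CPM in the controls. In both, the controls fell inside the range of the knockout libraries. Folr2, a folate receptor, was at 81.0, 21.9 and 39.4 against 36.8, 46.3 and 63.9 CPM. Timd4, a receptor for phosphatidylserine on dead cells, was at 9.35, 2.47 and 4.27 against 3.58, 4.69 and 7.27 CPM. Retnla, a secreted protein of alternatively activated macrophages and, in fat, one of the most abundant members, was at 502, 169.6 and 198 against 349.6, 240.4 and 434 CPM. All 3 had their highest value in Celf1 AKO replicate 1.

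The remaining resident genes had the same knockout order. Clec10a, a lectin that binds galactose, was at 163, 47.1 and 149 against 139, 119 and 181 CPM. Cbr2, a carbonyl reductase, was at 58.1, 23.7 and 25.0 against 26.6, 39.7 and 45.5 CPM. Vsig4, a complement receptor of low count here (20 in the lowest library), was at 1.77, 0.327 and 0.569 against 0.892, 0.531 and 0.949 CPM. In these 3 the controls lay at or between the values of the knockout libraries, except for Clec10a in Flox control replicate 3. Cd209f, a lectin of the DC-SIGN family, was as widely spread among the controls as among the knockouts (40.2, 9.54 and 11.6 against 8.68, 24.0 and 37.5 CPM). Celf1 AKO replicate 1 exceeded replicate 2 by 2.46-fold (Cbr2) to 5.39-fold (Vsig4), with a median of 3.46-fold. Between the genotypes, 2 of 9 log2 fold changes were positive and the median was -0.07 (range -0.29 for Clec10a to 0.16 for Vsig4), 0 passed, and edgeR adjusted p-values ran from 0.801 to 0.977. Without Celf1 AKO replicate 1 all 9 were negative (median -0.58), and without replicate 2 all 9 were positive (0.16). The median was also positive without Celf1 AKO replicate 3 (0.07, with 5 positive) and without Flox control replicate 3 (0.10, with 6).

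Lipid-associated genes did not follow 1 order. Spp1, which encodes the secreted protein osteopontin (ENSMUSG00000029304; chromosome 5, 104435118 to 104441050, + strand), was read at 5.35, 5.40 and 9.05 CPM in the knockout libraries, against 3.82, 2.54 and 2.23 CPM in the controls. All knockout values lay above all controls, and replicate 3 was the highest. The means were 6.60 ± 2.12 against 2.87 ± 0.844 CPM (SD, n = 3 each), and on the log2 scale Spp1 differed by 1.21 (SE 0.31). The edgeR adjusted p was 0.257, which did not pass, and 0.0104 with DESeq2; with 1 library left out the edgeR value ran from 0.111, with Celf1 AKO replicate 3 dropped, to 0.792, with Flox control replicate 3 dropped. Another annotated gene on the same strand, Gm42793, shares 309 exon bases with Spp1 (18.8%), so some of its reads could be counted there. Spp1 is also made by cells other than macrophages, and its order of libraries was neither that of Csf1r nor that of Trem2.

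Trem2, the lipid receptor that names this macrophage state, and Itgax, the integrin CD11c, were low and followed the core genes. Trem2 was at 2.55, 0.819 and 1.14 against 1.56, 1.08 and 1.78 CPM. Itgax was at 3.06, 1.08 and 1.55 against 1.96, 1.83 and 2.33 CPM. Both were highest in Celf1 AKO replicate 1 and lowest in replicate 2. Gpnmb, a lysosome-associated glycoprotein, was at 23.0, 15.9 and 43.3 CPM in the knockout libraries, against 22.7, 33.9 and 28.8 CPM in the controls. It shared the low value of Celf1 AKO replicate 2, but its highest library was replicate 3. Cd9, a tetraspanin, was at 37.3, 35.1 and 55.0 against 34.1, 38.5 and 28.2 CPM. Lgals3, which encodes galectin-3, was at 107, 114 and 165 against 196, 121 and 115 CPM. In neither was Celf1 AKO replicate 2 the lowest library, with a fold of 1.06 (Cd9) and 0.941 (Lgals3) of replicate 1 over replicate 2. Apart from Spp1, log2 fold changes in this set ran from -0.16 (Lgals3) to 0.34 (Cd9, SE 0.20), with edgeR adjusted p-values of 0.508 to 0.987.

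Resident and lipid-associated genes were then set against each other as scores, the mean log2(CPM + 0.5) of the 9 and of the 6 genes in each library. The resident score was 6.04, 4.38 and 5.09 in the knockout libraries and 5.09, 5.32 and 5.79 in the controls. The lipid-associated score was 3.75, 3.28 and 3.94 against 3.62, 3.47 and 3.45. The resident score thus spanned the wider range, above all among the knockout libraries (SD 0.83 against 0.36 in the controls, n = 3 each), while the lipid-associated score had SDs of 0.34 and 0.093.

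The resident minus lipid-associated difference was 2.29, 1.11 and 1.15 in the knockout libraries and 1.48, 1.85 and 2.34 in the controls. Celf1 AKO replicates 2 and 3 were the lowest of the 6, and replicate 1 was within the controls. The group means were 1.52 ± 0.67 and 1.89 ± 0.43 (SD, n = 3 each), a difference of -0.37 that was smaller than either SD. With sets of 4 genes (Timd4, Folr2, Cd163 and Vsig4 against Trem2, Gpnmb, Spp1 and Itgax) it was -0.32. Without Celf1 AKO replicate 1 it was -0.76, and without replicate 2 -0.17. Among the lipid-associated genes, Cd9, Lgals3 and Spp1 differed little between Celf1 AKO replicates 1 and 2 (folds of 1.06, 0.941 and 0.990). The median fold of the resident genes was 3.46, and Trem2 (3.11) and Itgax (2.83) were near it. The part of the general macrophage level in this difference was not tested, so it is not read as a balance of macrophage states.

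**Figure D5:**
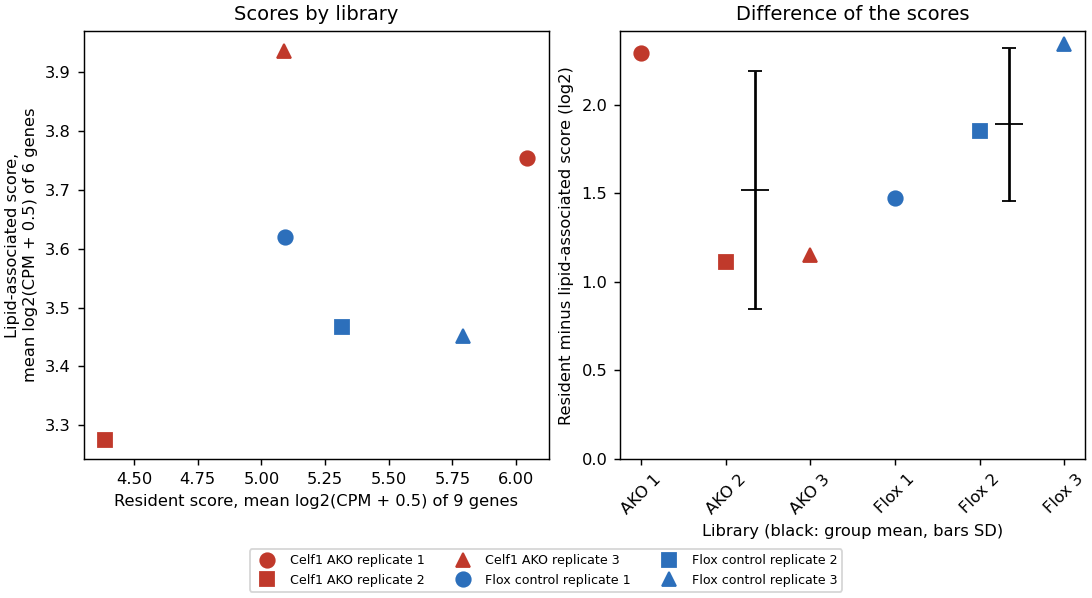
Left, resident score (x axis) against lipid-associated score (y axis), both mean log2(CPM + 0.5), 1 point per library; right, the difference of the 2 scores by library, with each group's mean and SD in black. Celf1 AKO replicates 2 and 3 have the smallest differences, 1.11 and 1.15, and the ranges of the groups overlap.

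Further genes of macrophage biology, from lists outside the 36, had 0 members past the test over all genes in either direction (edgeR). At an unadjusted p under 0.05, Il10, Csf2rb, Socs3 and Ly6c2 were higher and Ptgs2 lower, and DESeq2 called Csf2rb and Ptgs2. That was at most 1 gene in each direction in any list of 8 to 12 tested genes. Over all genes, 6.75% were higher and 6.17% lower at that unadjusted p, and DESeq2 called 2.12% higher and 0.96% lower. Among 12 other resident and perivascular genes (5 of 12 positive, median -0.02) Il10 and Gas6 were among those of smallest p-value. Il10, an anti-inflammatory cytokine, was at 18.5, 6.27 and 0.200 against 1.30, 0.266 and 0.505 CPM (log2 fold change 3.60, SE 1.30, adjusted p = 0.333). Its high values were in Celf1 AKO replicates 1 and 2, and replicate 3 was the lowest library. Without replicate 3 it passed (edgeR adjusted p = 0.0385), in a fit that called 3.19% of all genes. Gas6, a ligand that bridges dead cells to Mertk, was at 164, 96.3 and 107 against 65.7, 115 and 74.8 CPM (0.52, adjusted p = 0.455). The groups overlapped for Gas6. The 12 other lipid-associated and lysosome genes, which adipocytes express too, were near even (6 of 12 positive, median 0.00).

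Of 10 growth factors, their receptors and lineage factors (2 of 10 positive, median -0.22), Csf2rb, the receptor chain shared by GM-CSF and related cytokines, which has a close copy in the mouse (Csf2rb2), was at 48.3, 49.1 and 51.0 CPM in the knockout libraries, against 29.7, 37.0 and 26.8 CPM in the controls. Like Mertk it was higher in all 3 knockout libraries without the low value of replicate 2, by a log2 fold change of 0.67 (SE 0.14, edgeR adjusted p = 0.227; DESeq2 0.00382). Nr1h3 (LXR alpha) had a log2 fold change of -0.36 and Cebpa, abundant in adipocytes, -0.21. Of 12 kinases and adaptors downstream of Fcer1g and Tyrobp (1 of 12 positive, median -0.30), Celf1 AKO replicate 2 was the lowest library for all 12. In the other lists it was the lowest for 6 of 12 resident, 3 of 12 lipid-associated and lysosome, 5 of 10 growth and lineage, 4 of 8 dead cell uptake and 5 of 12 activation genes. The median over the kinases and adaptors was -0.53 with Celf1 AKO replicate 3 dropped and 0.05 with replicate 2 dropped. Lcp2 (-0.58) and Blnk (-0.51) were among those of smallest p-value, with adjusted p-values of 0.574 and 0.572. The 8 tested genes of dead cell uptake were near even (5 of 8 positive, median 0.09).

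Activation genes were 10 of 12 positive (median 0.32, and 0.19 to 0.57 without Flox control replicate 3 or 1), and many were close to the limit of detection, with Tnf at 0.0327 to 0.338 CPM and Arg1 at 0.164 to 0.910 CPM. Ptgs2, the inducible cyclooxygenase, was at 1.33, 0.622 and 0.676 against 2.08, 1.62 and 3.06 CPM, lower in Celf1 AKO without overlap (log2 fold change -1.37, SE 0.40, edgeR adjusted p = 0.289; DESeq2 0.0468). Socs3, a feedback inhibitor of cytokine signals, was at 51.4, 38.6 and 14.0 against 12.4, 21.5 and 14.6 CPM (1.10, adjusted p = 0.362), and dropping Celf1 AKO replicate 3 brought it past the test (1.47, edgeR adjusted p = 0.0367). That fit called 3.19% of all genes. Il4ra, the receptor for the cytokine that drives alternative activation, was at 70.6, 54.0 and 83.1 against 55.1, 56.1 and 37.8 CPM (0.48). Both overlapped between the groups. Of the monocyte markers (2 of 8 positive, median -0.11), Ly6c2, close in sequence to Ly6c1 of endothelial cells, lay between 1.36 and 2.78 CPM in the knockout libraries and between 0.964 and 1.45 CPM in the controls (0.79, adjusted p = 0.385). Ccr2, the receptor that brings monocytes into tissue, was at 18.7, 5.12 and 11.9 against 13.3, 17.3 and 28.7 CPM (-0.73, adjusted p = 0.537), and F10 had a log2 fold change of -0.70. Cx3cr1 was near 0 in every library, at most 0.237 CPM.

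By level per length in the controls, the most abundant members were Retnla (571 FPKM on average), Lyz2 (289), C1qb (177) and C1qa (158), and the least abundant Trem2 (0.307), Itgax (0.505) and Vsig4 (0.551). The deposited FPKM of Trem2 was computed on 4787 bases, near its longest annotated transcript (4784) and not near the others, down to 526, so its rank depends on that choice. Some members share sequence with another gene and are uncertain where counting could split reads. Lyz2 was 95.8% identical to Lyz1 over 1264 bases, Clec10a 96.4% to Mgl2 over 727, Cd209f 99.6% to Cd209g over 503, Itgax 95.0% to Itgad over 758, and Fcgr3 96.5% to Fcgr2b over 509. Gm49368 on the same strand shares 68.7% of the exon bases of Itgam, and Gm10602 on the opposite strand 63.1% of those of Folr2.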

How the data were processed

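RNA of inguinal fat was sequenced in 6 libraries. HISAT2, RSEM 1.3.1, GRCm38 and mm10 are listed, without their roles, per the submitters' processing notes. Annotation and strand setting: not given in the sources used here. Reads of antisense partners therefore cannot be told apart. The deposited files hold raw gene counts as whole numbers and the authors' FPKM for the same genes. Tested on the values, 91.7% of the members' FPKM lengths lay within 5% of the longest GENCODE M21 transcript. Of 16627 identifiers, 16528 matched GENCODE M21 (GRCm38). Members and lists were chosen with earlier results of these data known.

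The test was edgeR 4.0.16 (quasi-likelihood, TMM, its default filter, robust) in R 4.3.3 on genotype alone, with Benjamini-Hochberg adjustment over 16366 genes and a threshold of 0.05; SE is the fold change over the root of F. An exact permutation test of 3 against 3 cannot go below 0.1. The named genes were the 36 members, Celf1 and the 3 smallest p-values of each macrophage, monocyte and activation list; some of these are not reported here, and lists of other cells are given as counts and sums. Alternatives were RLE or library-size scaling, no filter, DESeq2 1.42.0, limma-voom (limma 3.58.1), log2(FPKM + 1), a replicate block and leaving out each library. On simulated counts for this comparison (16202 genes) edgeR called 4% of 50 genes changed 1.5-fold, 42% of 50 changed 2-fold and 90% of 50 changed 4-fold. There, 13 unchanged genes were called. The changed genes were drawn at random from expressed genes. Members varied more (median SD in Celf1 AKO 0.74 against 0.22 over all genes tested), so these shares need not hold for the 36. Transcripts were compared with BLAST 2.17.0 (at least 90% identity over 200 bases).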

Additional observations from a re-analysis of the deposited data

How the results depend on the processing

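The count of macrophage genes past the threshold was 0 higher and 0 lower under every alternative except DESeq2, which called 2 higher. Over all genes, 2 higher and 0 lower became 340 and 154 with DESeq2, 9 and 3 with the replicate block, and 0 higher with library size only, limma-voom and log2(FPKM + 1). With 1 library left out they ran from 0 to 237 higher and from 0 to 290 lower, the highest without Celf1 AKO replicate 3. Deviations of same-numbered libraries from their group means correlated across genes with r = 0.08, -0.05 and 0.21 for numbers 1, 2 and 3. Not every library correlated best with its own number. The highest r, 0.26, was between Celf1 AKO replicate 2 and Flox control replicate 1. The numbers were therefore not taken to pair the samples. The medians over members, resident and lipid-associated genes moved by less than the SD of their scores among the knockout libraries (0.63, 0.83 and 0.34), and with a library left out by more than that among the controls (0.15, 0.36 and 0.093). Their leave-one-out ranges were -0.43 to 0.27, -0.58 to 0.16 and -0.03 to 0.27, and the resident minus lipid-associated difference ran from -0.76 to -0.15.

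The sign of the log2 fold change (Celf1 AKO minus Flox control) changed under at least 1 alternative for 29 of 36 members, none of them past the test there, and the cause was not tested. Leaving out 1 library gave ranges whose low end was without Celf1 AKO replicate 1 and whose high end was without replicate 2 for Adgre1 -0.43 to 0.44, Csf1r -0.58 to 0.28, Laptm5 -0.16 to 0.36, Ctss -0.61 to 0.12, Ms4a7 -0.42 to 0.16, Tyrobp -0.30 to 0.31, Fcer1g -0.30 to 0.24, C1qa -0.52 to 0.089, C1qb -0.42 to 0.16, C1qc -0.43 to 0.17, Fcgr1 -0.41 to 0.40, Fcgr3 -0.10 to 0.44, Fcgr2b -0.44 to 0.47, Mrc1 -0.51 to 0.28, Cd163 -0.45 to 0.16, Timd4 -0.58 to 0.39, Folr2 -0.64 to 0.30, Vsig4 -0.78 to 0.56, Clec10a -0.54 to 0.092, Cbr2 -0.58 to 0.16, Retnla -0.86 to 0.033, Trem2 -0.55 to 0.32, Itgax -0.59 to 0.17, Cd52 -0.86 to 0.022. (Cd52 is a leukocyte marker, as is Ptprc.) Other ends applied to Cd68 -0.29 to 0.31, Itgam -0.35 to 0.25, Msr1 -0.68 to 0.17, Cd209f -1.11 to 0.32, Gpnmb -0.55 to 0.22, Lgals3 -0.39 to 0.12, Ptprc -0.47 to 0.19. Adgre1 was -0.10 with limma-voom, -0.057 with log2(FPKM + 1) and -0.088 with the replicate block. Timd4 was -0.13, -0.045 and -0.13 in the same order. Vsig4 was -0.16 with limma-voom and -0.12 with the block, and Trem2 -0.12 and -0.11. Fcgr2b was -0.0051 with the block, and Tyrobp 0.0041 with RLE and 0.0043 with DESeq2. Apart from Vsig4, Trem2, Fcgr1, Itgax and Aif1, the members had at least 146 counts in every library.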

Other observations

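Other cells of the tissue, read from their markers, had 0 genes past the edgeR test over all genes. DESeq2 called Kdr, Cldn5 and Esam of the endothelial list and Prlr of the epithelial one, all higher in Celf1 AKO. It called 2.12% of the genes with an adjusted p higher. Neutrophil markers had higher values in the knockout libraries (8 of 8 log2 fold changes positive, median 2.28, 4 at an unadjusted p under 0.05). At that p, 6.75% of all genes were higher. The neutrophil median was 0.78 without Celf1 AKO replicate 3. S100a9, a calcium-binding protein of neutrophil granules and cytosol, was at 5.22, 9.59 and 39.4 CPM in the knockout libraries, against 1.65, 5.11 and 0.398 CPM in the controls. Csf3r, the receptor for G-CSF, was at 4.57, 2.18 and 7.81 CPM in the knockout libraries, against 1.73, 2.32 and 1.39 CPM in the controls. Both were highest in Celf1 AKO replicate 3. The groups overlapped for Csf3r and, by a narrow margin, not for S100a9. Mast cell markers had log2 fold changes of the other sign (1 of 8 positive, median -0.74). Of the 8, 1 was lower at an unadjusted p under 0.05 and 1 lower without overlap, against 6.17% and 9.51% of all genes. The mast cell median was -1.21 with Celf1 AKO replicate 1 dropped and -0.37 with Flox control replicate 3 dropped. Their summed level was 39.6 to 99.3 CPM in the knockout libraries and 69.4 to 129 CPM in the controls.

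Markers of erythrocytes (6 of 6 log2 fold changes positive, median 0.87, 5 at an unadjusted p under 0.05), of mammary and other epithelium (4 of 4 log2 fold changes positive, median 1.34, 2) and of B and T cells (5 of 6 log2 fold changes positive, median 0.19, 1) lay on the positive side. Over all genes, 6.75% were higher at that p. Each of the 6 erythrocyte markers peaked in Celf1 AKO replicate 3, so they are not 6 separate observations. The erythrocyte median was 0.38 without that library. Without Celf1 AKO replicate 1 the epithelial median was 0.55 and that of B and T cells -0.16. Dendritic cell markers (3 of 8 log2 fold changes positive, median -0.18) and fibroblast and preadipocyte markers (2 of 10 log2 fold changes positive, median -0.11) lay on the negative side, with 0 at an unadjusted p under 0.05. Without Celf1 AKO replicate 2 their medians were 0.08 and 0.032.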
